A study of Mus musculus with 6 samples.

Results

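The interleukin 1 (IL-1) family genes described here are 10 of the 19386 genes in the authors' expression table, taken by symbol, with no threshold on a measured value. They are 4 agonist ligands (Il1a, Il1b, Il18 and Il1f9), the receptor antagonist Il1rn, the IL-18 binding protein gene Il18bp, the receptors Il1r1 and Il1rl2 with their shared co-receptor Il1rap, and the decoy receptor Il1r2. All 10 were listed in the table. Their messenger RNA was measured in macrophages grown from the bone marrow of wild-type C57BL/6 mice that had been kept in room air (3 libraries) or exposed to cigarette smoke (3 libraries). Marrow depleted of red cells was cultured with supernatant of L929 cells, which supplies the growth factor CSF-1, and the cells of both groups were harvested on day 11. The exposure was of the animal and not of the dish, and the labels name no later stimulus. The age and sex of the mice, the length of the exposure and whether a library holds a single mouse are not given in the sources used here.

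IL-1 alpha and IL-1 beta bind the receptor encoded by Il1r1, which recruits the co-receptor encoded by Il1rap and signals through MyD88, IRAK kinases and NF-kappaB. The product of Il1rn occupies the same receptor without signalling, and IL1R2 binds the ligand without a signalling domain. Pro-IL-1 beta and pro-IL-18 are cut by caspase-1 in the inflammasome, so the RNA level of a ligand is not the amount of secreted cytokine. Resting macrophages hold little Il1b RNA, and microbial or damage signals raise it within hours.

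In these macrophages Il1b and Il1rn were higher after smoke, 3.97-fold and 2.27-fold by their group means. Both calls were lost when a trend in GC content and transcript length was taken out (adjusted p 0.0672 and 0.0719), with folds of similar size. Of the other members 7 did not pass the test and Il1rl2 had no adjusted p. The ligand genes Il1a and Il1f9 and the receptor genes Il1r1 and Il1r2 had means under 10 normalized counts in both groups, and Il1rl2 was that low in 5 of the 6 libraries. The promoters of the 2 genes that rose, and of Il1a, the neighbour of Il1b on chromosome 2, are shown first as the DNA context of the result. Each line gives the 150 bases before the RefSeq start site on GRCm38.p6, 5′ to 3′ on the strand of the gene. Il1b lies at chr2:129371140-129371289 on the minus strand, Il1a at chr2:129309973-129310122 on the minus strand and Il1rn, at its upstream start, at chr2:24336710-24336859 on the plus strand. Capitals mark matches to 4 motifs, searched on both strands, that lie wholly within the printed bases. A match that crosses the end of a line stays in lower case, as at the end of the Il1rn line. The TATA motif was spelled TATAAA and the AP-1 motif was spelled TGANTCA. A loose kappaB motif was spelled GGGNNNNNCC and a PU.1-type motif was spelled GAGGAA.
Il1b: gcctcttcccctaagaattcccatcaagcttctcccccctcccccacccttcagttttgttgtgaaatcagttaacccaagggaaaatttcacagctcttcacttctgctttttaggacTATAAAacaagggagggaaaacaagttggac
Il1a: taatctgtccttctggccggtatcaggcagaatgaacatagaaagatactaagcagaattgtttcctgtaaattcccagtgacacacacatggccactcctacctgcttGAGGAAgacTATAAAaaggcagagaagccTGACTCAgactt
Il1rn: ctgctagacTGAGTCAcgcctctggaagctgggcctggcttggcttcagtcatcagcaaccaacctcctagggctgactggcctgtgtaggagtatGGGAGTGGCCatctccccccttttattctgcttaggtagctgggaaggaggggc

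The search covered RefSeq windows of 300 bases, from 250 before to 50 after a start, and all 10 members matched, with 13 windows between them. In Il1b and Il1a the letters TATAAA stood at -31 to -26 and at -32 to -27 from the start, and 13.6% of all 32851 windows held that motif on either strand. Il1a also held TGACTCA at -12 to -6 and GAGGAA at -41 to -36, and Il1rn held TGAGTCA at -141 to -135. An AP-1 match occurred in 7.81% of all windows and a GAGGAA match in 28.3%. Matches to the loose kappaB motif, present in 50.8% of all windows, stood at -54 to -45 and at -4 to 6 of the upstream Il1rn window, and GGGTTTTTCC stood at 30 to 39 of a window on a downstream start of that gene. No matches to the AP-1, kappaB or GAGGAA letters were found in the Il1b window. Among the members that were not called, the Il1rap window held 9 kappaB matches counted over both strands, the Il1f9 window 2 and a window of Il1r1 1. The same letters can count more than once. The Il1rap matches lay at -235 to -226, -187 to -178, -154 to -144 and -119 to -109, and the Il1f9 matches overlapped at 13 to 23. TATAAA stood on the opposite strand in the windows of Il18 and Il1rl2 and in a downstream Il1rn window, Il1f9 held 1 GAGGAA match, and Il18bp and Il1r2 held no match. These matches are descriptions of letters and no binding was measured.

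Expression was deposited as the mean over 3 libraries of counts divided by a size factor, which scales each library for depth. Low means turned out to be exact sums of whole reads: every mean of up to 8 in the table (7000 in room air and 6549 in smoke, leaving out those at 0) was a whole-number combination of 3 units per group, within 1.3 half-units of its last digit. After a shift by 10 such half-units 0% of the same means were. The units give the size factors of the libraries, which were 2.73, 2.58 and 1.67 in room air and 3.42, 1.06 and 0.662 in smoke. Depth was therefore far more uneven in the smoke group, where 1 read was worth 0.293 normalized counts in the deepest library and 1.51 in the shallowest. The values do not say which replicate number a library carries, so libraries are called deepest, middle and shallowest of their group. For 6 members the reads per library could be recovered in both groups, for Il18 and Il18bp in the smoke group alone, and for Il1rn and Il1rap in neither. A larger mean can be made from reads in several ways, as for Il1rap and for Il18 and Il18bp in room air. The Il1rn means were above 100, the largest mean tried.

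Among the agonist ligands, Il1b (ENSMUSG00000027398, GRCm38 chr2:129364570-129371139, minus strand) encodes IL-1 beta, the main inflammasome-processed cytokine of macrophages. The room air libraries held 36, 33 and 44 reads of Il1b, which correspond to 13.2, 12.8 and 26.4 normalized counts from the deepest to the shallowest library. The smoke libraries held 180, 59 and 66 reads, or 52.7, 55.5 and 99.6 normalized counts. All 3 smoke libraries were above all 3 room air libraries, and the shallowest library was the highest in either group. The means were 17.5 ± 7.75 in room air and 69.3 ± 26.4 in smoke (SD, n = 3 each). The authors' deposited table lists Il1b at a log2 fold change of 1.99 with a standard error of 0.58, a 95% Wald interval of 0.86 to 3.12 and an adjusted p of 0.0148. With any 1 of the 6 libraries left out, the log2 ratio of the recovered means plus 1 stayed between 1.58 and 2.33, against 1.93 with all 6. An exact permutation test of 3 against 3 cannot go below p = 0.1, so it cannot reach the 0.05 level with these libraries.

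Of the 1015 tested genes whose reads could be recovered in both groups, 13.3% had all smoke libraries above all room air libraries and 5.62% had all below, which makes 18.9% without overlap. Il1b was 1 of 5 tested members with recovered reads in both groups, and was the member of these 5 whose groups did not overlap.

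**Figure D1:**
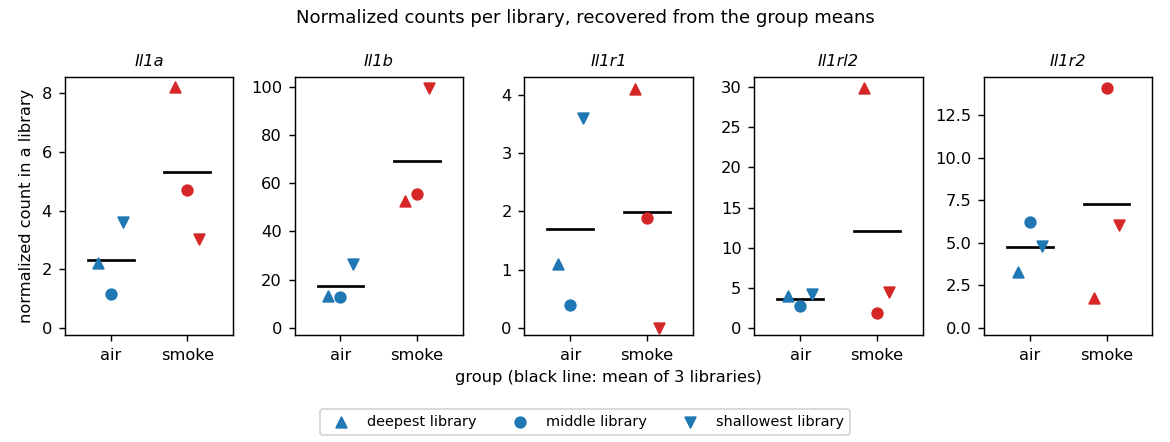
Normalized counts in each library (vertical axis, linear, a scale of its own for each gene) for the 5 members with reads in both groups recovered from the group means, in room air (blue) and cigarette smoke (red). Marker shape gives the deepest, middle and shallowest library of a group and the black line the mean of 3. The 3 Il1b values of smoke lie above those of room air, while the Il1rl2 mean of smoke rests on the deepest library at 29.9.

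Il1a (ENSMUSG00000027399, chr2:129299610-129309972, minus strand) encodes IL-1 alpha, which needs no caspase-1 and acts as an alarm signal when cells die. It had 6, 3 and 6 reads in the room air libraries, or 2.20, 1.16 and 3.60 normalized counts. In smoke it had 28, 5 and 2 reads, or 8.19, 4.70 and 3.02. The shallowest smoke library lay below the highest room air library, so the groups overlapped, and a value of 2 reads leaves a wide counting error. For Il1a the authors' deposited table lists 1.32 as log2 fold change, with a standard error of 0.89, an interval of -0.42 to 3.07 and an adjusted p of 0.393. A change of the size seen for Il1b is inside that interval, as is 0.

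Il18 (ENSMUSG00000039217, chr9:50554827-50581840, plus strand) encodes IL-18, an inducer of interferon gamma that many macrophages express without stimulation. Its smoke libraries were tight, with 98, 25 and 17 reads or 28.7, 23.5 and 25.7 normalized counts, while 4 sets of whole reads gave the room air mean of 29.9. Its log2 fold change, from the authors' deposited table, was -0.14 with a standard error of 0.24 and an adjusted p of 0.791. The interval of -0.61 to 0.33 does not hold a rise of the size of Il1rn or Il1b. Il1f9 (ENSMUSG00000044103, chr2:24186476-24193568, plus strand), the gene of the epithelial and myeloid cytokine IL-36 gamma, had 1 read in the deepest room air library and 0 in the other 5. Both groups were under the limit of 3 reads that a count of 0 allows, and no fold is given.

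Of the natural antagonists, Il1rn (ENSMUSG00000026981, chr2:24336853-24351494, plus strand) encodes the IL-1 receptor antagonist and was the most abundant member in both groups. The authors' mean was 129.7 normalized counts in room air and 294.5 in smoke, with no spread between libraries available. The authors' deposited table lists Il1rn at 1.19 on the log2 fold scale, with a standard error of 0.40, an interval of 0.41 to 1.97 and an adjusted p of 0.0416. Il18bp (ENSMUSG00000070427, chr7:102014885-102018690, minus strand), whose product holds IL-18 inactive, had an authors' mean of 34.3 in room air. Its smoke libraries held 253, 34 and 29 reads, or 74.0, 32.0 and 43.8 normalized counts, so the deepest was highest and 1 of the 3 was below the room air mean. The authors' deposited table lists Il18bp at 0.59 on the log2 fold scale, with a standard error of 0.31, an interval of -0.01 to 1.18 and an adjusted p of 0.232.

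The signalling receptors were low. Il1r1 (ENSMUSG00000026072, chr1:40225080-40317257, plus strand), the receptor for IL-1 alpha and beta, had 3, 1 and 6 reads in room air, or 1.10, 0.387 and 3.60 normalized counts. In smoke it had 14, 2 and 0 reads, or 4.10, 1.88 and 0, so the shallowest library had no read, and the room air values lay inside the range of smoke. Its log2 fold change, from the authors' deposited table, was 0.75 (standard error 0.84, adjusted p 0.653), while the log2 ratio of the group means was 0.23 and that of all reads over summed size factors was 1.12. The size of this difference depended on how the unequal libraries were weighted.

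Il1rl2 (ENSMUSG00000070942, chr1:40324610-40367562, plus strand) encodes the IL-36 receptor, which also pairs with the Il1rap product. Room air libraries had 11, 7 and 7 reads, or 4.04, 2.71 and 4.20 normalized counts. The smoke libraries had 102, 2 and 3 reads, or 29.9, 1.88 and 4.53. The deepest smoke library thus stood far above the other 5, which ran from 1.88 to 4.53, and the middle smoke library was the lowest of all 6. The authors' deposited table lists Il1rl2 at 1.82 on the log2 fold scale, with a standard error of 0.92 and an unadjusted p of 0.0468, an interval of 0.026 to 3.61 and no adjusted p, since the mean over all libraries was below its low-count filter. Without the deepest smoke library the mean of smoke was 3.20, against 3.65 in room air, and the log2 ratio of means plus 1 turned from 1.49 to -0.14. The rise in the group mean of Il1rl2 rests on 1 library.

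Il1rap (ENSMUSG00000022514, chr16:26581704-26730117, plus strand), the co-receptor for the IL-1, IL-33 and IL-36 receptors, was the receptor gene with the highest level. Its means were 94.5 normalized counts in room air and 82.9 in smoke, and the authors' deposited table lists its log2 fold change as -0.23, with a standard error of 0.19, an interval of -0.59 to 0.14 and an adjusted p of 0.505. A doubling is outside that interval. The decoy receptor gene Il1r2 (ENSMUSG00000026073, chr1:40074079-40125231, plus strand) had 9, 16 and 8 reads in room air, or 3.30, 6.19 and 4.80 normalized counts. In smoke it had 6, 15 and 4 reads, or 1.76, 14.1 and 6.04, which holds both the lowest and the highest of the 6 libraries. The authors' deposited table lists its log2 fold change as 0.50 (standard error 0.67, adjusted p 0.721).

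**Figure D2:**
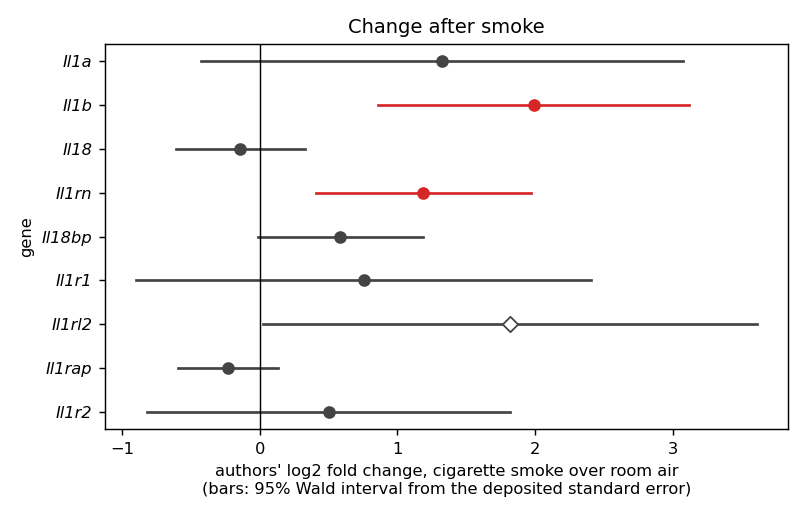
Log2 fold change of smoke over room air from the authors' deposited table (horizontal axis) for 9 members, with 95% Wald intervals as bars. Red marks an adjusted p under 0.05, and the open diamond marks Il1rl2, which has no adjusted p. The intervals of Il1b, Il1rn and Il1rl2 lie above 0, the last with its lower end at 0.026, and those of Il18 and Il1rap are the narrowest.

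Of the 9 members with an adjusted p, 2 passed the threshold of 0.05, both higher after smoke, which is 22.2%. The background was 7.69% of 12082 tested genes in either direction with 4.15% higher and 3.53% lower after smoke. Fold changes followed GC content and transcript length across genes, and once that trend was taken out Il1b had a log2 fold change of 1.88 with an adjusted p of 0.0672 and Il1rn one of 1.28 with an adjusted p of 0.0719, with 1.27% of 12071 genes called. Without the low-count filter on genes Il1rn had an adjusted p of 0.0656. With so few members, 1 gene moves their share by over 10 percentage points. Il1a, Il1f9, Il1r1 and Il1r2 were tested only because the other 18 libraries of the fit lifted them over the low-count filter, so no tally of signs over the members is set against all genes. Il1r1 and Il1r2 had positive fold changes whose sign was not kept in the recovered libraries. The log2 ratio of means plus 1 of Il1r1 went from 0.15 to -0.47 without the deepest smoke library and to -0.16 without the middle room air library, and that of Il1r2 from 0.53 to -0.24 without the middle smoke library. The authors' fit held 24 libraries, of which 18 are outside the groups compared here and entered the standard errors.

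The levels of the members relative to each other were compared as normalized counts per kilobase of the longest GENCODE M21 transcript. In room air the order was Il1rn at 50.8, Il18 at 33.8, Il1rap at 20.9, Il18bp at 13.2 and Il1b at 12.9, followed by Il1r2 at 3.36, Il1a at 1.18, Il1rl2 at 0.934, Il1r1 at 0.292 and Il1f9 at 0.0742. The antagonist gene was therefore first. The places of Il18bp and Il1b are not set, since the libraries of Il1b ran from 9.42 to 19.5 per kilobase. Within the lower part of that order the libraries of Il1a (0.588 to 1.82 per kilobase) overlapped those of Il1rl2 (0.693 to 1.08) and reached into those of Il1r1 (0.0665 to 0.619), whereas the lowest Il1r2 library, at 2.33, was above all 3 genes. In smoke Il1b stood second at 51.1 per kilobase behind Il1rn at 115.3, and its lowest library, at 38.8, was above the highest Il18 library, at 32.4. In smoke the libraries of Il1r2 (1.24 to 9.94), Il1a (1.53 to 4.15) and Il1rl2 (0.481 to 7.64) overlapped, so their order is not set. Those of Il1r1 (0 to 0.704) lay below Il1r2 and Il1a but met Il1rl2 and, at 0, Il1f9.

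The ratio of Il1rn to Il1b per kilobase was 3.94 in room air and 2.26 in smoke, and the difference of the 2 log2 fold changes was 0.80, which was not tested. The co-receptor gene Il1rap stood 71.7-fold above Il1r1 per kilobase in room air and 53.6-fold in smoke, and the decoy Il1r2 stood 11.5-fold and 15.0-fold above Il1r1. The Il1r1 side of these ratios rests on 10 and 16 reads in all, and on few libraries: the Il1r1 mean goes from 1.70 to 0.744 normalized counts without the shallowest room air library and from 1.99 to 0.940 without the deepest smoke library, which moves each ratio more than 2-fold.

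The other 18 libraries of the fit, whose conditions are not given in the sources used here, had far more of several members. Their mean, obtained by subtracting the 6 libraries from the 24-library mean, was 8579 normalized counts for Il1b, 7470 for Il1rn and 1755 for Il1a. Relative to the mean of the 6 macrophage libraries this is 198-fold for Il1b, 35.2-fold for Il1rn and 460-fold for Il1a. Il1rap stood at 1.55-fold and Il1rl2 at 0.613-fold. Il1a, Il1f9, Il1r1 and Il1r2 reached the low-count filter only through those 18 libraries, and no share of all genes is set beside these values. The ratio of Il1rn to Il1b per kilobase was 0.462 there, so that Il1b was the more abundant of the pair, the reverse of both groups here. In smoke Il1b reached 69.3 normalized counts, far below that mean.

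**Figure D3:**
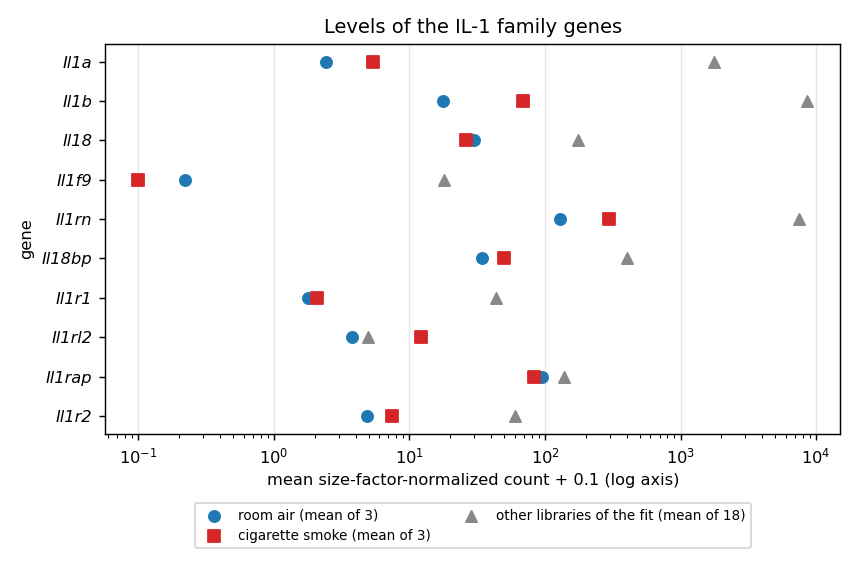
Mean normalized count plus 0.1 (log axis) of the 10 members in room air (blue, 3 libraries), cigarette smoke (red, 3 libraries) and the other 18 libraries of the authors' fit (grey). The grey mean of Il1b, at 8579, is far right of both groups, whose means are 17.5 and 69.3.

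**Figure D4:**
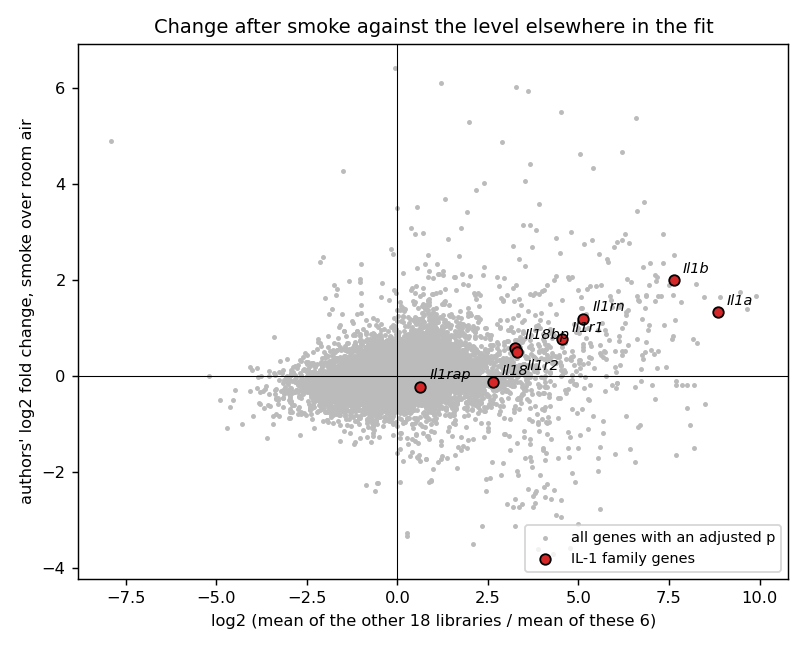
Log2 fold change of smoke over room air from the authors' deposited table (vertical axis) against the log2 ratio of the mean of the other 18 libraries to the mean of these 6 (horizontal axis), for all 12082 genes with an adjusted p (grey) and 8 members (red). Il1f9, with 1 read in these libraries, is not drawn. Of the 8 members drawn Il1a and Il1b stand furthest right, at 460-fold and 198-fold, and Il1rap, at 1.55-fold, nearest 0.

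The rest of the pathway was followed in 75 genes listed by role, of which 67 were in the table and 65 had an adjusted p. Of these 12 passed the threshold (18.5%), 9 higher and 3 lower after smoke, beside 7.69% of all tested genes, 4.15% higher and 3.53% lower. The lists were chosen with earlier results of these data known. Some listed genes, with the called gene Csf2 among them, were tested only because of their level in the other 18 libraries. These shares are therefore no support for a shift of the pathway. After the GC and length trend was taken out 4 of the 12 were called, beside 1.27% of 12071 genes: Ptgs2, Ccl2, Nos2 and Nlrp1b. Among the other receptors of the family, 0 of 3 tested genes passed, and 0 had an unadjusted p under 0.05. The IL-33 receptor gene Il1rl1 had means of 13.5 and 27.1 normalized counts and 1.02 as log2 fold change, from the authors' deposited table (standard error 0.59, adjusted p 0.299), and the IL-18 co-receptor gene Il18rap, the highest of that list, had 101.5 and 104.1. The IL-18 receptor gene Il18r1 had 7 reads in room air and 3 in smoke over all libraries.

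Among genes for processing and release, 0 of 14 were called higher and 2 lower, beside 4.15% higher and 3.53% lower of all tested genes. Nlrp1b, an inflammasome sensor, fell from a mean of 217 to 116 (authors' deposited table: log2 fold change -0.88, standard error 0.20, adjusted p 0.00169). Aim2, the sensor of cytosolic DNA, fell as well in the authors' deposited table (log2 fold change -0.27, standard error 0.086, adjusted p 0.0282), a call that was lost with the trend taken out (adjusted p 0.388). Casp1, which cuts pro-IL-1 beta and pro-IL-18, and the sensor Nlrp3 did not pass, with log2 fold changes of -0.29 and 0.07 and adjusted p of 0.266 and 0.852 per the authors' deposited table. The highest gene of the list, the protease subunit gene Capn2, had means of 1336 and 1309.

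In signal transduction 3 of 26 tested genes passed, beside 7.69% of all tested genes. With the GC and length trend taken out 0 passed, beside 1.27% of 12071 genes (adjusted p 0.243 for Irak2, 0.518 for Ube2v1 and 0.811 for Map3k7). Irak2, a kinase of the receptor complex, rose by a log2 fold change of 0.52 (adjusted p 0.0348) and Ube2v1, a partner of the ubiquitin enzyme that works with TRAF6, by 0.42 (adjusted p 0.00334), as the authors' deposited table lists them. Map3k7, which encodes the kinase TAK1, fell by 0.31 on the log2 scale (adjusted p 0.0369) per the authors' deposited table. Tab2, an adaptor of TAK1 and the highest gene of the list, had means of 1471 and 1323 and, per the authors' deposited table, an adjusted p of 0.532.

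Of 10 feedback and mRNA decay genes 2 were called higher, beside 4.15% of all tested genes. With the GC and length trend taken out 0 passed, beside 1.27% of 12071 genes (adjusted p 0.0692 for Socs3 and 0.368 for Nfkbia). Socs3, a brake on cytokine receptor signalling, went from a mean of 16.1 to 65.8 (authors' deposited table: log2 fold change 2.06, standard error 0.55, adjusted p 0.00734). Nfkbia, the NF-kappaB target that encodes its inhibitor, went from 257 to 375 (authors' deposited table: log2 fold change 0.56, adjusted p 0.00967). The decay factor gene Zfp36l2, the highest of the list, had means of 1613 and 1385 and, per the authors' deposited table, an adjusted p of 0.678.

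The response targets, genes known to follow IL-1 among other signals, had positive log2 fold changes in 12 of 12 tested genes, beside 49.7% of all tested genes, and 5 of 12 passed, beside 7.69%. Csf2, Cxcl1, Lcn2 and Mmp9 were so low in these 6 libraries that they were tested only because of their level in the other 18, so these counts are no support for a shift of the list. With the GC and length trend taken out Saa3 and Csf2 were no longer called (adjusted p 0.0985 and 0.119). For Lcn2, which did not pass, the sign rests on 1 library: smoke had 0.293, 0 and 10.6 normalized counts from deepest to shallowest, and room air 1.47, 2.32 and 2.40. Ptgs2 (cyclooxygenase 2) went from a mean of 42.5 to 301 (authors' deposited table: log2 fold change 2.83, standard error 0.60, adjusted p 5.00e-04). Nos2 (inducible nitric oxide synthase) went from 15.7 to 106.7, the monocyte chemokine gene Ccl2 from 66.2 to 213 and the acute phase gene Saa3 from 21.2 to 63.5, for which the authors' deposited table lists adjusted p of 0.00603, 5.62e-04 and 0.0259. The adhesion molecule gene Icam1, the highest of the list, had means of 464.5 and 656.4 and did not pass (adjusted p 0.246 per the authors' deposited table). Il6 and Tnf did not pass (adjusted p 0.0825 and 0.177 per the authors' deposited table).

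The fifth call among the targets, Csf2, the gene of the growth factor GM-CSF, rested on a single library. It had 0, 1 and 0 reads in room air and 101, 0 and 0 in smoke, all 101 in the deepest library, and the authors' deposited table lists its adjusted p as 0.0404. Csf3, the gene of G-CSF, likewise had 40 reads in the deepest smoke library and 0 in the other 5. The same library had the highest Il1rl2 and Il1a values. For Il1b it was level with the middle library within counting error (52.7 and 55.5), and it was the lowest of the 3 for 2 further targets. Il6 had 3.22, 14.1 and 42.3 normalized counts in smoke from the deepest to the shallowest library, and Cxcl1, a neutrophil chemokine gene, had 1.17, 14.1 and 16.6. High Csf2, Csf3 and Il1rl2 thus came from a library that had less Il6 and Cxcl1 than the other smoke libraries. It also had the most RNA of the T cell marker gene Cd4 of the 3, at 48.3 normalized counts beside 3.76 and 15.1. Klrb1c, the other T and NK cell gene listed, went the other way and was lowest there, at 1.17 beside 3.76 and 1.51. The part of other cells in the values above was not tested.

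**Figure D5:**
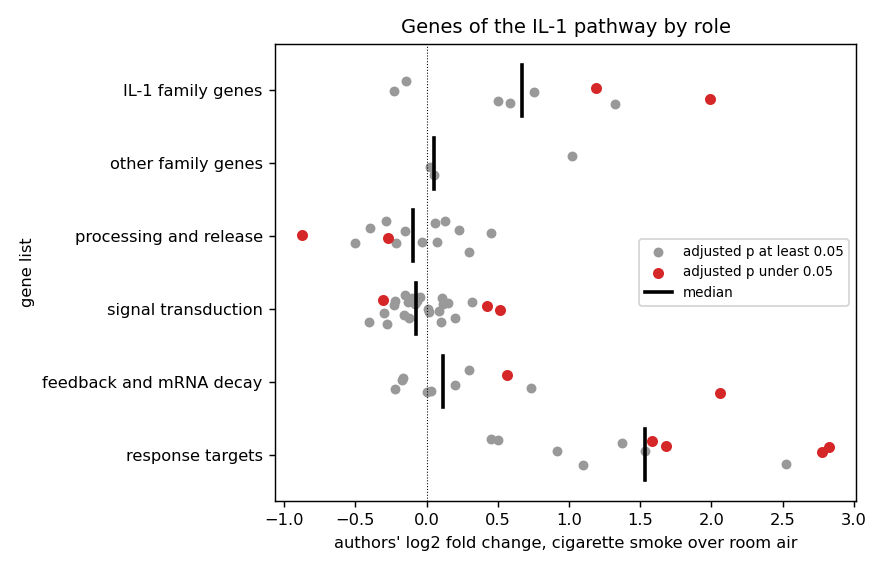
Log2 fold change of smoke over room air from the authors' deposited table (horizontal axis) for each tested gene of 6 lists (rows, points spread vertically at random for legibility), with genes under an adjusted p of 0.05 in red and the list median as a black line. Ptgs2 and Nos2, at 2.83 and 2.78, stand furthest right, and Il1f9 and Csf2, at 1 read in room air each, are left out. Il1a, Il1r1, Il1r2, Cxcl1, Lcn2 and Mmp9 are drawn and enter the medians, though they were tested only because of the other 18 libraries. The medians of the IL-1 family genes and of the response targets are therefore no support for a shift.

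The cells were checked against lineage markers. All 8 macrophage markers were tested, 0 passed, and their summed level was 52689 normalized counts in room air and 54621 in smoke. Neutrophils can make much IL-1 beta and Il1r2, and 4 of 10 neutrophil genes were listed, with sums from 0 to 0.600 in room air libraries and from 0 to 0.940 in smoke libraries. At these levels the neutrophil genes S100a8, Cxcr2, Ngp and Ltf were at 0 or within a few reads in every library. The 6 stromal genes summed to 122, 7.35 and 1.80 in the room air libraries and 15.8, 3.76 and 1.51 in the smoke libraries, from deepest to shallowest, with 0 of 5 tested genes past the threshold. B cell genes summed to 5.03 to 8.40 in room air libraries and 2.05 to 7.55 in smoke libraries, and dendritic genes stayed under 2 in all 6. Of the T and NK cell genes Cd4 and Klrb1c were listed, and their sum was 49.5, 7.52 and 16.6 in the smoke libraries from deepest to shallowest, with group means of 32.0 in room air and 24.5 in smoke. Cd4 had 165, 4 and 10 reads in smoke and Klrb1c had 4, 4 and 1. Cd4 was thus most of the sum in the deepest and shallowest smoke libraries, and level with Klrb1c in the middle one. Of the mast cell genes only Kit was listed, with means of 54.5 and 47.9. Stromal RNA thus stood highest in the deepest library of each group, and its part in the member values was not tested. In bulk RNA, fewer expressing cells and less RNA per cell cannot be told apart.

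Splicing gave little on these genes. None of the 10376 JuncBASE events, which classify alternative splice choices, lay within a member (0 of 10). Of 71 events in 23 pathway genes 0 passed an adjusted p of 0.05 with limma, and 11 (15.5%) had an unadjusted p under 0.05, beside 10.8% of all 10376 events, the smallest adjusted p being 0.155. Over all events 0 of 10376 passed, and 718 of 5982 when the third smoke library was left out. Among 3887 retained introns tested by the authors with rMATS, 2 lay in members and neither passed. The Il1rn intron at chr2:24345369-24345519 (151 bases, on the plus strand) had a false discovery rate of 0.815, and the Il18bp intron at chr7:102015836-102016042 (207 bases, on the minus strand) one of 0.176, both in the authors' deposited table. In the pathway lists 5 of 27 introns passed, beside 14.5% of all 3887. They lay in Cxcl2, Ikbkb, Casp4, Nfkbia and Dusp1, and no direction is given because the groups behind the 2 sample sets are not named. The authors' merged transcript assembly held 14 transcripts at Il1rn, and at Il18bp 11 transcripts that extended up to 3715 bases beyond the annotated 3′ end.

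Reads of overlapping genes may enter some of these counts, since the counting program's strand setting is not given in the sources used here. Genes on the opposite strand overlap 6 members, and a gene on the same strand overlaps 3. The partner of Il1b, Il1bos, had a mean of 0 in room air and 0.0976 in smoke. Numa1, with means of 1272 and 1052, shares 80 bases with Il18bp.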

How the data were processed

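RNA was sequenced from 6 macrophage cultures, 3 per group, with groups and replicate numbers from the sample titles. Directional libraries were made from total RNA, per the labels' protocols. STAR, DESeq2, SAMtools 1.9, bedtools 2.27.1 and the build mm10 are named in the submitters' processing notes, without roles, and the counting step is not given in the sources used here. The members, gene lists and tests were chosen with earlier results of these data known. All members are named, with the list genes past the threshold and the highest gene of each list; Il1rl1, Il18r1, Casp1, Nlrp3, Il6, Tnf, Cxcl1, Lcn2 and Csf3 were added after their values were seen.

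The signal values, group means of size-factor-normalized counts, the log2 fold changes, Wald scores and p-values are the authors' deposited DESeq2 output, fitted on 24 libraries. An adjusted p was given where the 24-library mean was at least 8.52, and genes under an adjusted p of 0.05 are called. Expression had been planned for a test per library only if the table held libraries, so the authors' comparison is described. Reads per library were recovered from means of up to 100 by listing all whole-number solutions within the stated tolerance and keeping a gene only where there was 1. No count test was run on them, because only low genes can be recovered. These are PCR reads without molecular identifiers, so limits from read numbers cover counting error only. The expression p-values rest on standard errors from the fit on 24 libraries. They do not measure the spread of the 6 libraries here alone.

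JuncBASE levels, the percent inclusion of an event in a library as deposited, were tested with limma 3.58.1 on log2 odds with a pseudocount of 1 percentage point, for events with values in at least 2 libraries of each group. The rMATS difference, another quantity in the authors' deposited table, is described, and 6 of its columns of per-sample values were not used. Trends of fold change in GC content and transcript length were removed, as an alternative, by splines with 4 degrees of freedom (statsmodels 0.14.6). Positions, lengths and overlaps came from GENCODE M21 on GRCm38, and sequences from RefSeq on GRCm38.p6.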

Additional observations from a re-analysis of the deposited data

How the results depend on the processing

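The 2 calls among the members became 0 at an adjusted p under 0.01, 1 without the low-count filter, 1 when only genes averaging 50 or more were kept (Il1b is then not tested, and Il1rn has an adjusted p of 0.0355) and 0 once trends in GC content and transcript length had been removed. Il1b then had a log2 fold change of 1.88 with an adjusted p of 0.0672, and Il1rn 1.28 with 0.0719, beside 1.27% of 12071 genes called; without the filter Il1rn had an adjusted p of 0.0656 and Il1b 0.0236. The 12 pathway calls became 7 at 0.01 and 4 after the trend. Of the 80 alternative values for single members, 76 were counted as the same. Those with an adjusted p kept their direction and side of the threshold. Ratios of group means with a pseudocount lay within the deposited standard error of the log2 fold change. That margin is wide for Il1a, at 0.49 with a pseudocount of 5 against 1.32, with a standard error of 0.89. Ratios with 1 library left out stayed within the library spread. Of the rest, 3 are the lost Il1b and Il1rn calls just given, and 1 is Il1rl2 without its deepest smoke library, at -0.14. Within the library spread, Il1r1 also turned negative without 1 library in 3 cases, at most to -0.47, and Il1r2 in 1, to -0.24. No called value changed sign. Pathway intron calls by rMATS went from 5 to 3 at a false discovery rate under 0.01 and to 2 at 10 percentage points or more. JuncBASE calls in pathway genes went from 0 to 1 with a pseudocount of 0.1 (Dusp1, adjusted p 0.0217; 241 of 10376 events overall), and from 0 to 9 over the settings that leave out 1 library, with 9 of 39 without the third smoke library (718 of 5982 events overall), all 9 with a group at 0% or 100% throughout. With the replicate number as a block the count was 0; same-numbered libraries had correlations of deviations of 0.02, -0.04 and -0.09, so the numbers do not pair the samples. No paired analysis was possible for expression because the deposited columns are group means. The cause of these shifts was not tested. Depth limits Il1a, Il1r1 and Il1f9, with 15, 10 and 1 reads over the room air libraries.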
